A study of Drosophila melanogaster and Drosophila simulans and Drosophila yakuba with 12 samples.

Results

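Small RNA of whole male larvae was compared among 3 species of fruit fly, Drosophila melanogaster, D. simulans and D. yakuba. The libraries were taken by their labels, which left 4 of the 12 libraries of the series: 2 samples of D. melanogaster (larva 1 and larva 2), 1 of D. simulans and 1 of D. yakuba. D. melanogaster was the strain Oregon-R, D. simulans the stock 14021-0251.167 and D. yakuba the stock 14021-0261.00, and no group carried a mutation or a treatment. The larvae were 18 h short of puparium formation, when the larval skin hardens into the case in which the animal metamorphoses. RNA of 16 to 28 nt was selected and joined to a 5′ adaptor that ended in an index of 4 bases beside the insert. Both D. melanogaster larvae carried the index ACTG, in pools SDY1 and SDY3. The D. simulans larva carried GACT and the D. yakuba larva CGAT, both in pool SDY4, so species and index cannot be told apart in the larvae. Male prepupae of the same strains, collected at most 1 h after puparium formation (6 libraries from 4 RNA samples), entered the fit described below to give it a second measure of spread. The prepupal RNA of D. simulans and that of D. yakuba had each been made into a pair of libraries with different indexes, in pools SDY3 and SDY4, and those pairs are quoted beside the species differences.

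MicroRNAs are small RNAs cut from a hairpin precursor, whose 5p and 3p arms can each be loaded into an Argonaute protein. The loaded strand finds messenger RNAs mainly through its seed, bases 2 to 8 counted from the 5′ end, and lowers their stability and translation. The last larval day is known for pulses of the steroid ecdysone, which start metamorphosis, while the larval muscle, gut, fat body and imaginal discs are still present in 1 animal. In whole animals, fewer cells of a type and less of a miRNA per cell cannot be told apart.

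The mature sequences of 8 arms on which the comparisons below turn are given 5′ to 3′ with the seed in capitals, as the commonest read of D. melanogaster larva 1. The commonest reads of miR-263a-5p, miR-282-5p and miR-33-5p began inside the annotated mature sequence in all 3 species, which moved their seeds. 
miR-1-3p: uGGAAUGUaaagaaguauggag
miR-10-3p: cAAAUUCGguucuagagagguuu
miR-263a-5p: aAUGGCACuggaagaauucacggg
miR-282-5p: uAGCCUCUacuaggcuuugucu
miR-34-5p: uGGCAGUGugguuagcugguu
miR-275-3p: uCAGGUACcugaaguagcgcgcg
miR-33-5p: gUGCAUUGuagucgcauuguc
miR-315-5p: uUUUGAUUguugcucagaaagcc

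In D. melanogaster (build BDGP6) the hairpin mir-1 lies at 2L:20487441-20487531 on the plus strand in an exon of lncRNA:CR45361. The hairpin mir-10 lies in the Antennapedia complex of Hox genes at 3R:6809506-6809582 on the minus strand, in an exon of lncRNA:CR42651. The hairpin mir-263a, annotated as mir-bft, lies at 2L:11953410-11953503 on the minus strand. Long noncoding RNA exons also hold mir-282 (3L:3251022-3251118, plus strand), mir-34 (3R:10100936-10101034, plus strand) and mir-275 (2L:7425795-7425892, plus strand). The hairpin mir-33 (3L:19797961-19798059, plus strand) lies in an intron of SREBP, the gene of a sterol-regulatory transcription factor. The hairpin mir-315 lies at 3L:18860971-18861054 on the plus strand, in an exon of lncRNA:CR45388.

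The 5p arm of miR-305 differs in length between the mature sequences in the 3 deposited alignment texts, and the pair is shown because the D. simulans count depended on it. The hairpin mir-305 lies beside mir-275, at 2L:7425972-7426044 on the plus strand. The capitals in the 5p sequences mark the run of G, which is 2 bases long in D. melanogaster and 1 base long in D. simulans. D. yakuba had the D. melanogaster sequence. In the 3p sequences the capital marks position 10 from the 5′ end, where the substitution from D. melanogaster to D. simulans is U10C.
D. melanogaster miR-305-5p: auuguacuucaucaGGugcucug
D. simulans miR-305-5p: auuguacuucaucaGugcucug
D. melanogaster miR-305-3p: cggcacaugUugaaguacacuca
D. simulans miR-305-3p: cggcacaugCugaaguacacuca

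The authors' alignment texts hold 176 D. melanogaster hairpins, 136 D. simulans hairpins and 80 D. yakuba hairpins. The arms compared belong to the 62 miRNAs listed in all 3 texts, which have 124 arms. The annotated mature sequence was the same in the 3 texts for 55 of the 62 miRNAs. Counted on its own species' hairpins, D. melanogaster larva 1 had 29168 reads, D. melanogaster larva 2 had 10113, the D. simulans larva 4762 and the D. yakuba larva 3731. The shared arms took 88.2%, 92.0%, 94.8% and 99.2% of these. All shares below are percentages of the reads on shared arms, with exact Clopper-Pearson intervals at the 95% level that cover counting error only. An arm with 0 reads could have held up to 3 reads, which is a share of up to 0.0117%, 0.0322%, 0.0665% and 0.0810% in the same order. Of the 124 arms, 36 reached a mean share of 0.1% over the 4 larvae and were compared.

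The larvae put most of their reads on few arms. The 10 leading arms held 76.2% of the reads in D. melanogaster larva 1, 78.1% in larva 2, 87.4% in D. simulans and 81.5% in D. yakuba. miR-1-3p, the muscle miRNA that limits growth and supports function of larval muscle, took 6.42% and 14.3% of the reads in D. melanogaster larvae 1 and 2, 25.2% in D. simulans and 37.3% in D. yakuba. It was lowest in D. melanogaster larva 1, and the D. simulans and D. yakuba larvae lay above both D. melanogaster larvae. miR-184-3p, a conserved miRNA needed in the fly's female germline and early embryo, took 16.3%, 13.96%, 24.5% and 11.05% in the same order. It was above both D. melanogaster larvae in D. simulans and below both in D. yakuba. miR-31a-5p took 6.98%, 14.3%, 13.3% and 8.97%, and neither other species lay outside the D. melanogaster pair. miR-10-3p, from the hairpin among the Hox genes, took 13.9%, 6.23%, 4.52% and 12.4%. D. simulans lay below both D. melanogaster larvae for it, and D. yakuba lay between them.

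**Figure D1:**
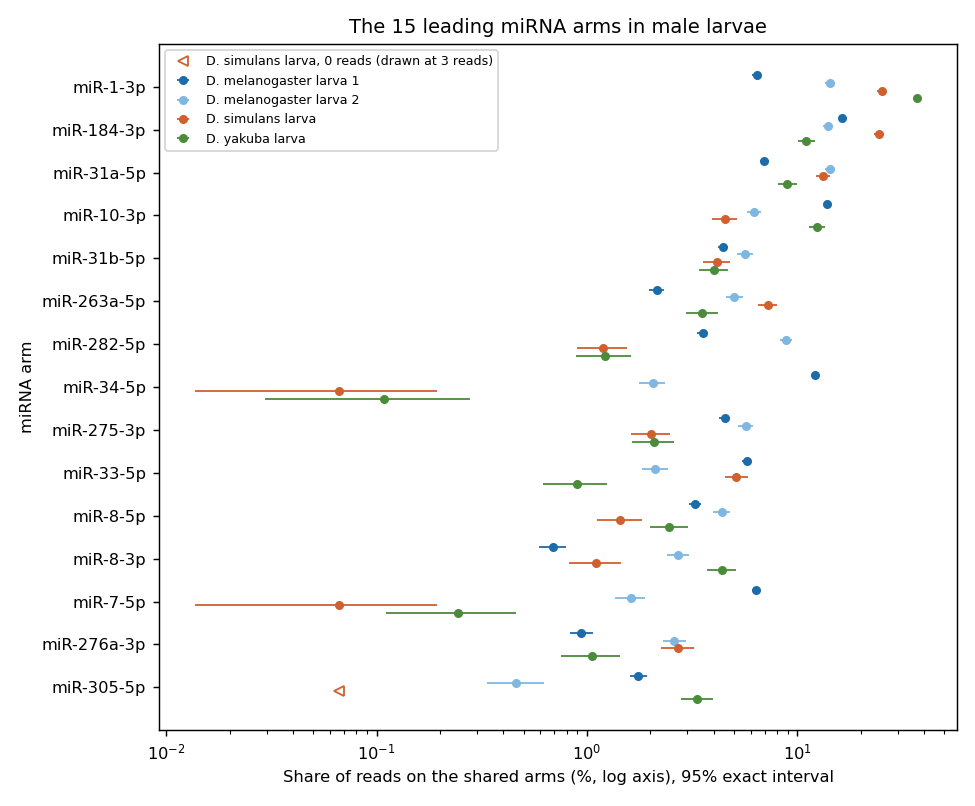
Share of reads on the shared arms (percent, log axis) for the 15 arms with the highest mean share, 1 point for each male larva with its 95% exact interval. miR-1-3p is higher in D. simulans and D. yakuba than in both D. melanogaster larvae, miR-34-5p and miR-7-5p are lower in both, and miR-305-5p has 0 D. simulans reads on the D. simulans hairpins (open triangle, drawn at 3 reads).

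The pair of D. melanogaster larvae, which shared strain, sex, stage and index but not pool, differed widely. Their intervals were apart for 27 of the 36 arms (75%), with 13 higher (36.1%) and 14 lower (38.9%) in larva 2. The ratio of larva 2 to larva 1 was 2.23 (2.07 to 2.40) for miR-1-3p and 0.169 for miR-34-5p. A species difference was therefore counted only where the interval of the other species' larva lay above, or below, the intervals of both D. melanogaster larvae. By that rule the D. simulans larva was outside for 18 of 36 arms (50%), 6 higher (16.7%) and 12 lower (33.3%), and the D. yakuba larva for 14 (38.9%), 4 higher (11.1%) and 10 lower (27.8%). These shares are below the 75% of arms that set the D. melanogaster larvae apart, a comparison with 1 library in place of 2. Depth differed too. The D. melanogaster larvae had 25717 and 9306 reads on shared arms, D. simulans 4514 and D. yakuba 3702, and more reads narrow the intervals. Against D. melanogaster larva 1 alone, 28 arms lay outside in D. simulans and 24 in D. yakuba, and against larva 2 alone 23 and 22. Both species were outside for 10 arms, which are 55.6% of the D. simulans and 71.4% of the D. yakuba arms. miR-1-3p was higher in both, 7 were lower in both (miR-282-5p, miR-34-5p, miR-275-3p, miR-8-5p, miR-7-5p, miR-13b-3p and miR-2b-5p) and miR-184-3p and miR-305-5p went opposite ways. The species share the D. melanogaster larvae as controls, so these overlaps are not independent.

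The edgeR quasi-likelihood test adds the spread between samples. It was fitted to 8 male RNA samples in 6 groups of species and stage, with 2 residual degrees of freedom, all from the D. melanogaster pairs. The single larvae of D. simulans and D. yakuba are thereby assumed to vary as the D. melanogaster pairs did, for which the biological coefficient of variation was 0.665. In D. simulans against D. melanogaster, 3 of 36 arms passed an adjusted p of 0.05 (8.33%), all lower. They were miR-34-5p, miR-7-5p and miR-305-5p. In D. yakuba against D. melanogaster 0 arms passed (0%), and 0 passed the adjusted threshold by DESeq2. At an unadjusted p under 0.05 there were 3 by edgeR and 4 by DESeq2. In D. yakuba against D. simulans 1 arm passed (2.78%), miR-305-5p.

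miR-34-5p comes from a miRNA known for its part in ageing of the fly brain and for its response to ecdysone and juvenile hormone. It had 3126 reads in D. melanogaster larva 1, 191 in larva 2, 3 in D. simulans and 4 in D. yakuba, shares of 12.2%, 2.05%, 0.0665% and 0.108%. Both D. melanogaster larvae lay far above the other species, though they differed from each other, and the D. simulans and D. yakuba intervals overlapped (0.0137% to 0.194% and 0.0294% to 0.276%). The share in D. melanogaster larva 2 was 30.9 times that in D. simulans (10.4 to 151) and 19.0 times that in D. yakuba (7.30 to 70.4). The fitted log2 difference was −6.43 ± 2.01 (SE) for D. simulans, adjusted p = 0.0486, and −5.19 ± 1.89 for D. yakuba, adjusted p = 0.273. Over the 15 alternatives for D. simulans the difference ran from −7.17 to −2.76 and passed in 4, with adjusted p from 0.0267 to 0.955. The same D. simulans prepupal RNA gave miR-34-5p 0.0133% with the larval index GACT (3 reads) and 0.418% with ACTG (20 reads), a ratio of 0.0318 (0.00606 to 0.107). The D. yakuba prepupal RNA gave 0.0324% with the larval index CGAT and 0.282% with TGAC, from 7 and 4 reads. Index and pool changed together in these pairs and cannot be told apart, and TGAC is not the index of the D. melanogaster larvae. With the index as a term, chosen after seeing the data, the D. simulans difference was −2.76 ± 2.61, adjusted p = 0.955.

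miR-7-5p is known in the fly for stabilising the fates of photoreceptors and sense organ precursors against Notch and EGF receptor signals. It had 1635 reads in D. melanogaster larva 1, 150 in larva 2, 3 in D. simulans and 9 in D. yakuba, shares of 6.36%, 1.61%, 0.0665% and 0.243%. Again both D. melanogaster larvae lay above the other species without overlap. The fitted log2 difference for D. simulans was −5.61 ± 1.89, adjusted p = 0.0486. It ran from −6.24 to −2.10 over 15 alternatives and passed in 2 of them, with adjusted p from 0.0413 to 0.955. In the D. simulans prepupal RNA miR-7-5p took 0.0887% with GACT and 2.38% with ACTG, a ratio of 0.0372 (0.0219 to 0.0603). In the D. yakuba prepupal RNA it took 0.255% with CGAT and 0.282% with TGAC, a ratio of 0.903 (0.333 to 3.43). As TGAC is not the D. melanogaster larval index, the D. yakuba pair does not bridge the larval comparison.

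miR-305-5p, which in the fly tunes the balance of renewal and differentiation in intestinal stem cells, had 452 reads in D. melanogaster larva 1, 43 in larva 2, 0 in D. simulans and 124 in D. yakuba on own hairpins. The shares were 1.76%, 0.462%, 0% and 3.35%, so D. simulans lay below and D. yakuba above both D. melanogaster larvae. The D. simulans share was at least 26.4-fold lower than in larva 1 and at least 6.95-fold lower than in larva 2, taking 3 reads for 0. On the D. melanogaster hairpins the same D. simulans library had 39 miR-305-5p reads, 0.853% (0.608% to 1.16%), which lay between the D. melanogaster larvae. All 39 reads hold the longer run of G, which the deposited D. simulans hairpin lacks. With all libraries on the D. melanogaster hairpins the log2 difference of D. simulans was −0.07 ± 1.39, adjusted p = 0.970. The D. yakuba excess over D. simulans, at least 50.4-fold on own hairpins (adjusted p = 0.0121), was then 2.48 ± 1.68 on the log2 scale, adjusted p = 0.932. miR-305-3p went the other way, with 14 D. simulans reads on its own hairpin and 0 on the D. melanogaster hairpin, from which it differs by U10C.

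The hairpin set moved 1 other well-counted arm. miR-281-5p, which in the silkworm acts on an ecdysone receptor isoform in the Malpighian tubule, had 366, 111, 1 and 36 reads in D. melanogaster larvae 1 and 2, D. simulans and D. yakuba on own hairpins. The D. simulans text lists 1 mir-281 hairpin. On the D. melanogaster hairpins the D. simulans library had 35 reads, 0.766% (0.534% to 1.06%), against 1.42% and 1.19% in the D. melanogaster larvae and 0.973% in D. yakuba. On own hairpins its log2 difference of −5.60 ± 2.03 in D. simulans had an adjusted p of 0.0661. Of 53 arms with reads in the D. simulans larva, 47 had the same count on both hairpin sets, and of 54 in the D. yakuba larva 53 did. On the D. melanogaster hairpins 16 arms lay outside the D. melanogaster larvae in D. simulans and 14 in D. yakuba.

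Other arms also lay below both D. melanogaster larvae in D. simulans. miR-282-5p took 3.55%, 8.87%, 1.20% and 1.22% in D. melanogaster larvae 1 and 2, D. simulans and D. yakuba. The 2 other species were nearly equal for it and both lay below D. melanogaster. Within the D. simulans prepupal RNA it took 2.09% with GACT and 12.8% with ACTG. miR-275-3p, needed in the mosquito Aedes for blood digestion and egg development, took 4.51%, 5.67%, 2.02% and 2.08%. The D. melanogaster larvae were closer to each other than to either other species for it, and the D. simulans prepupal libraries gave 1.60% and 3.03%. miR-13b-3p, a K box miRNA that targets proapoptotic genes, took 1.17%, 1.47%, 0.266% and 0.216%. miR-92b-3p, which supports renewal of neuroblasts, took 0.533%, 0.763%, 0.0665% and 0.729%, with D. simulans alone below. In the D. simulans prepupal RNA miR-92b-3p took 0.142% with GACT and 1.32% with ACTG. miR-2b-5p, the less used arm of a K box hairpin, had 70 and 35 reads in the D. melanogaster larvae and 0 in both other larvae. Its share was at least 4.10-fold and 5.66-fold lower in D. simulans than in larvae 1 and 2.

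The arms above both D. melanogaster larvae in D. simulans were miR-1-3p, miR-184-3p, miR-263a-5p, miR-11-3p, miR-14-5p and miR-315-5p. miR-1-3p was 2.43 times the mean D. melanogaster share, with a fitted log2 difference of 1.47 ± 1.56 and an adjusted p of 0.699. miR-263a-5p, which protects sense organ cells of the fly from apoptosis, took 2.15%, 5.03%, 7.24% and 3.54%. D. simulans was the highest and D. yakuba lay between the D. melanogaster larvae. In the D. simulans prepupal RNA this arm ran against the larval difference, with 6.37% for GACT and 11.9% for ACTG. miR-11-3p, from an intron of the cell-cycle gene E2f1, where it limits apoptosis, took 0.214%, 0.172%, 1.11% and 0.297%. Its D. simulans share was 5.74 times the mean of D. melanogaster, and in the prepupal RNA GACT over ACTG was 5.98 (2.85 to 15.1). miR-315-5p, an activator of Wingless signalling in fly cells, had 7, 6, 20 and 10 reads, or 0.0272%, 0.0645%, 0.443% and 0.270%. D. simulans lay above both D. melanogaster larvae (log2 difference 3.52 ± 1.42, adjusted p = 0.112), while the D. yakuba interval met that of larva 2. miR-14-5p, the partner of a strand known for limiting cell death and fat storage, had 29, 11, 26 and 0 reads. Its D. simulans share was 4.99 times the mean of D. melanogaster and at least 7.11 times that of D. yakuba.

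In D. yakuba, miR-1-3p, miR-8-3p, miR-305-5p and miR-283-5p were above both D. melanogaster larvae. miR-1-3p was 3.60 times their mean share (log2 difference 2.58 ± 1.56, adjusted p = 0.406), and 5.81 and 2.61 times that of larvae 1 and 2. In the D. yakuba prepupal RNA it took 47.7% with the larval index CGAT and 9.51% with TGAC, a ratio of 5.01 (4.23 to 5.98). miR-8-3p, which promotes growth through the fat body by way of insulin signalling, took 0.688%, 2.72%, 1.11% and 4.38% in D. melanogaster larvae 1 and 2, D. simulans and D. yakuba. The D. yakuba larva was the highest, yet its index gave the lower value in the prepupal pair, 3.02% for CGAT against 29.6% for TGAC. miR-283-5p took 0.521%, 0.398%, 0.332% and 0.999%, and in the prepupal RNA CGAT over TGAC was 4.56 (1.24 to 38.1), from 139 and 2 reads. miR-33-5p, which acts on lipid metabolism, was below both D. melanogaster larvae in D. yakuba alone, at 5.76%, 2.11%, 5.14% and 0.891% in the same order. The 10 lower arms also included miR-184-3p, miR-275-5p with 0 reads, and the 7 shared with D. simulans.

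Set directly against each other, the D. yakuba and D. simulans larvae were apart for 16 of 36 arms (44.4%), 8 higher (22.2%) and 8 lower (22.2%) in D. yakuba. miR-1-3p was 1.48 times as high in D. yakuba, miR-10-3p 2.74 times, miR-8-3p 3.95 times and miR-92b-3p 10.97 times. miR-33-5p was at 0.173 of its D. simulans share. miR-281-5p was 43.9 times as high on own hairpins, against 0.973% and 0.766% on the D. melanogaster hairpins, where the intervals overlapped. These larvae shared the pool SDY4 and differed in index, and the index could not be fitted as a term in either D. yakuba comparison because no RNA joined CGAT or TGAC to the other indexes.

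The same-RNA pairs of prepupal libraries give the size of the difference that arises with an index and a pool but no change of animal. In D. simulans the intervals were apart for 24 of 36 arms (66.7%), and in D. yakuba for 14 (38.9%). The ACTG library of D. simulans had 4785 reads on shared arms and the TGAC library of D. yakuba 1419. The counts and correlations of these species are therefore not at like depth. Of the 18 arms outside D. melanogaster in the D. simulans larva, 15 differed the same way between GACT and ACTG in 1 RNA. miR-263a-5p differed the opposite way. For miR-305-5p and miR-281-5p no difference could show. With GACT and ACTG, miR-305-5p had 0 and 0 reads on own hairpins and miR-281-5p had 3 and 0. Of the 14 in the D. yakuba larva, 5 differed the same way between CGAT and TGAC, 3 the opposite way (miR-184-3p, miR-8-5p and miR-8-3p), and 6 were not separated. Among those 6, miR-33-5p, miR-7-5p and miR-13b-3p had 3, 4 and 9 reads with TGAC, and miR-275-5p and miR-2b-5p had 0. Across the 30 arms with reads in each library, the log2 larval ratio of D. simulans to D. melanogaster and the log2 ratio of GACT to ACTG had a Pearson's r of 0.893 and a Spearman's rho of 0.821. For D. yakuba, with CGAT over TGAC, they were 0.450 and 0.426. The larval and prepupal ratios of a species share strain, index and total, and arms within a library share its depth, so these are descriptions. The D. simulans larva ranked the 36 arms more like the prepupal library of its own index (rho 0.97) than the other library of that prepupal RNA (0.74). The D. yakuba larva did likewise (0.97 and 0.83), and the D. melanogaster larvae had a rho of 0.77 with each other. In D. simulans and D. yakuba the prepupal library of the larval index was in pool SDY3. The other prepupal library was in SDY4, the pool of these larvae.

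**Figure D2:**
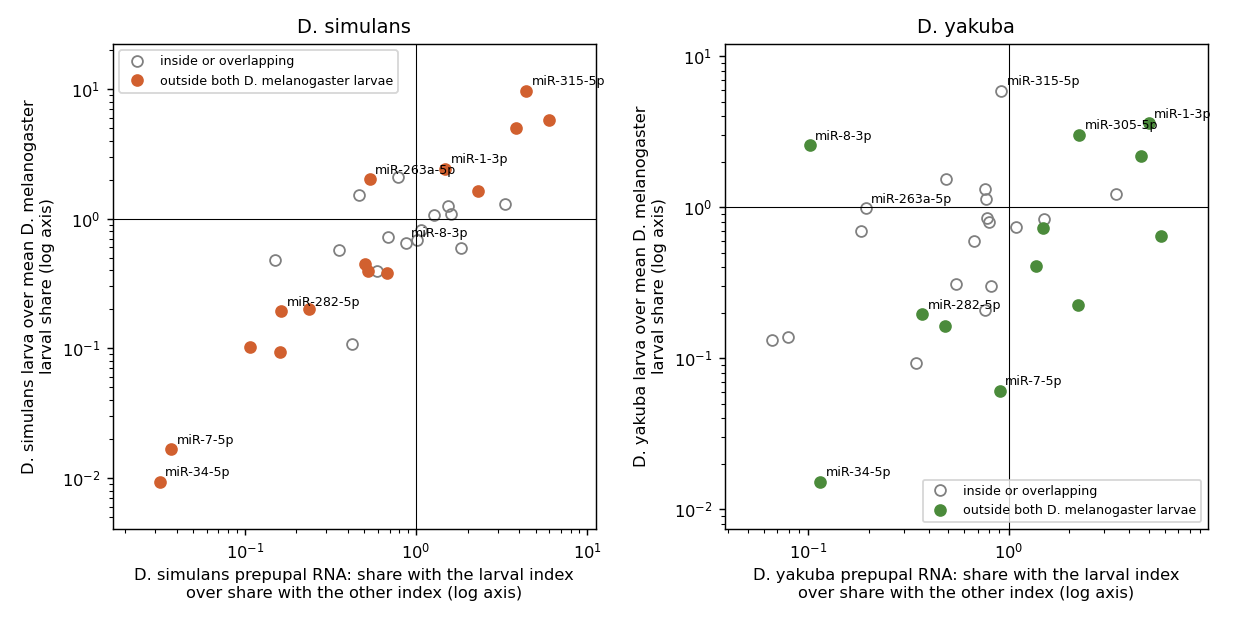
Each point is 1 of 30 arms, with the larval share over the mean D. melanogaster larval share on the y axis and, on the x axis, the share with the larval index over that with the other index in 1 prepupal RNA (both log axes), for D. simulans on the left and D. yakuba on the right. In D. simulans both ratios rise together (r = 0.893) and the D. yakuba arms scatter more widely (r = 0.450). The library with the other index had 4785 reads on shared arms in D. simulans and 1419 in D. yakuba.

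The balance of the 2 arms of a hairpin was compared for 12 hairpins with 20 reads in every larva. The D. simulans larva was outside both D. melanogaster larvae for 0 of them (0%) and the D. yakuba larva for 1 (8.33%), miR-8. The 5p arm made up 82.5% and 61.7% of miR-8 reads in D. melanogaster larvae 1 and 2, 56.5% in D. simulans and 35.97% in D. yakuba. The D. melanogaster larvae were themselves apart for miR-8. The balance also moved within 1 D. yakuba prepupal RNA. There miR-8-5p and miR-8-3p had 526 and 652 reads with the larval index CGAT, and 6 and 420 with TGAC. On the D. melanogaster hairpins miR-305 came in as a further difference, with 99.2% 5p reads in D. yakuba against 78.5% and 82.7% in D. melanogaster. It entered because its D. simulans reads then passed 20, with 39 against 14 on own hairpins. The D. yakuba reads of both miR-305 arms were the same on both hairpin sets.

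The 5′ end sets the seed, and its use was measured as the share of reads at the commonest start for 13 arms. The D. yakuba larva was outside the D. melanogaster larvae for 0 arms (0%) and the D. simulans larva for 4 (30.8%), all with fewer reads at the usual start. miR-1-3p had 99.8%, 98.6%, 96.0% and 99.6% of its reads at the usual start in D. melanogaster larvae 1 and 2, D. simulans and D. yakuba. miR-184-3p had 99.1%, 98.5%, 90.9% and 100%, and miR-275-3p 99.9%, 99.6%, 87.9% and 100%. miR-282-5p was the other arm, at 94.4% in D. simulans. In the D. melanogaster larvae this use was itself apart for 3 of the 13 arms (23.1%), among them miR-1-3p. Of the 1137 D. simulans reads of miR-1-3p, 1091 began at the usual start and 44 began 1 base inside it, which moves the seed by 1 base. The commonest reads of both kinds in the D. simulans larva, with bases 2 to 8 of each read in capitals, show the move for miR-1-3p (1005 and 39 reads) and miR-275-3p (33 and 8 reads).
miR-1-3p, usual start: uGGAAUGUaaagaaguauggag
miR-1-3p, 1 base inside: gGAAUGUAaagaaguauggag
miR-275-3p, usual start: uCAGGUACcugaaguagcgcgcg
miR-275-3p, 1 base inside: cAGGUACCugaaguagcgcgcg

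Summed over arms, starts 1 base inside were frequent only with the index GACT among these 10 male libraries, and only for arms whose usual first base is U. For the 9 such arms, the D. simulans larva had 174 of 3418 reads 1 base inside (5.09%, 4.38% to 5.88%). The arms were uneven, from 0 of 50 for miR-8-3p and 0 of 69 for miR-9a-5p to 12.1% for miR-275-3p. D. melanogaster larvae 1 and 2 had 5 of 11368 (0.0440%) and 2 of 6434 (0.0311%), and the D. yakuba larva 5 of 2628 (0.190%). The D. simulans prepupal RNA had 1026 of 18016 (5.69%) with GACT and 0 of 3293 with ACTG, an upper limit of 0.112%. For the 4 arms that begin with another base the D. simulans larva had 0 of 828. Among these arms, miR-33-5p had 5 of 196 reads 1 base inside in D. melanogaster larva 2 (2.55%). GACT ends in T, the base that such a read lacks at its start, but so does CGAT, the index of the D. yakuba larva. How far the index accounts for these starts was not tested beyond these counts.

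**Figure D3:**
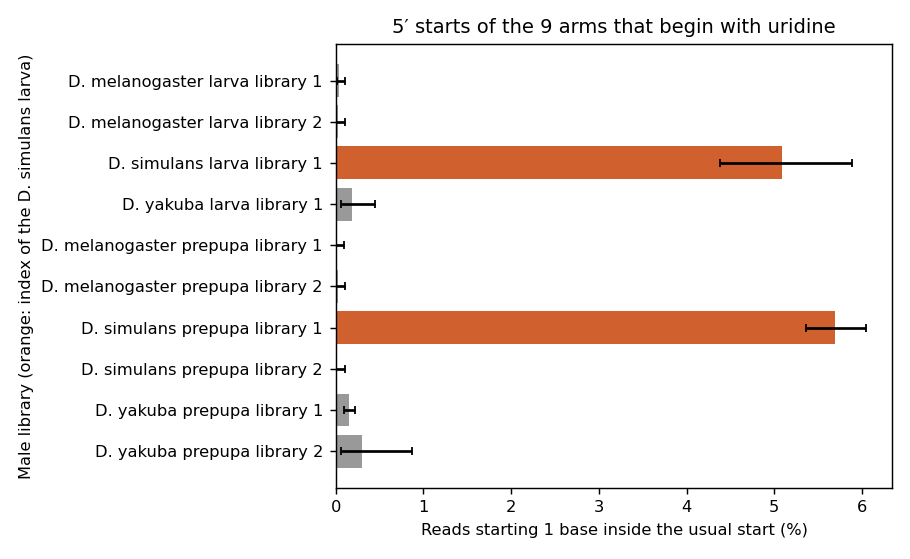
Share of reads that began 1 base inside the usual start (percent, with 95% exact interval), summed over the 9 arms that begin with U, for the 10 male libraries. Only the 2 D. simulans libraries with the index GACT stand above 5%, and the other library of the same prepupal RNA is at 0.

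Read length differed for some arms more than for the library. Reads of 20 nt or shorter made up 3.8% and 3.7% of the tested arms in D. melanogaster larvae 1 and 2, 4.1% in D. simulans and 7.2% in D. yakuba. The arms shown next were chosen after their values were seen. miR-283-5p had 23.1% and 73.0% short reads in D. melanogaster larvae 1 and 2 and 97.3% in D. yakuba. miR-92b-3p had 7.3%, 30.99% and 92.6%, and miR-305-5p 5.5%, 51.2% and 60.5%. For these 3 arms the D. melanogaster larvae differed from each other, with more short reads in larva 2. The D. simulans larva had under 20 reads of each, and the D. simulans prepupal library with GACT had 95.8% short reads of miR-283-5p and 96.9% of miR-92b-3p. The library of the same RNA with ACTG had 50% (28.2% to 71.8%) and 39.7% (27.6% to 52.8%), from 22 and 63 reads. miR-276a-3p, which acts in dopamine signalling of fly olfactory memory, had 7.0% and 2.5% in D. melanogaster larvae 1 and 2, 9.0% in D. simulans and 51.3% in D. yakuba. In the D. yakuba prepupal RNA miR-276a-3p had 66.4% short reads with CGAT and 0% with TGAC. miR-1-3p, in contrast, stayed between 1.3% and 3.8% in all 4 larvae.

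**Figure D4:**
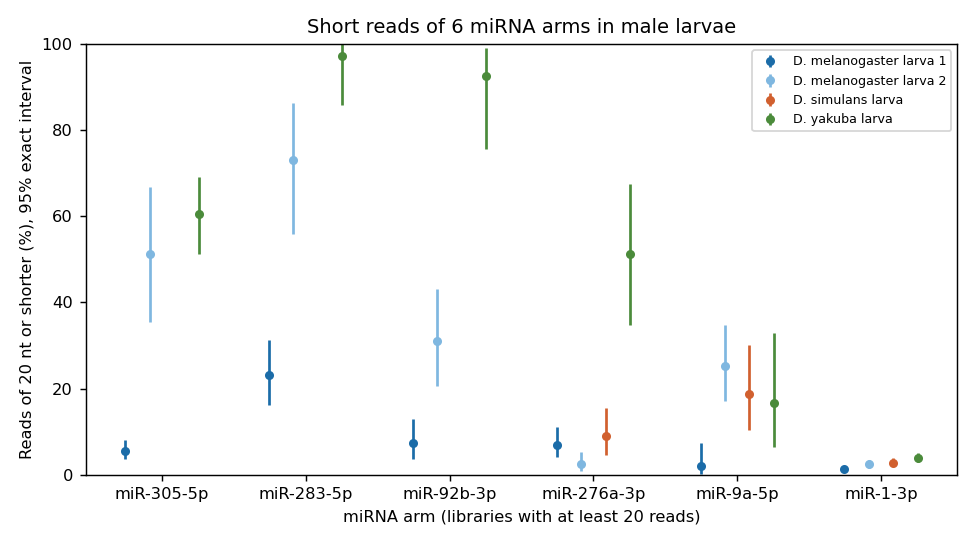
Share of reads of 20 nt or shorter (percent) for 6 arms, with 1 point for each male larva with at least 20 reads and 95% exact intervals. miR-92b-3p is higher in the D. yakuba larva than in both D. melanogaster larvae. The D. yakuba value of miR-283-5p is above theirs, but its interval overlaps that of D. melanogaster larva 2. D. simulans, with 15 reads of miR-283-5p and 3 of miR-92b-3p, is not drawn for these arms. miR-276a-3p is highest in D. yakuba, and miR-1-3p is low in all larvae.

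Bases added to the 3′ end that the hairpin does not encode were counted from the reads the authors list with such tails. For miR-1-3p they made up 8.59% and 5.27% of reads in D. melanogaster larvae 1 and 2, 4.13% in D. simulans and 4.50% in D. yakuba. Most were U only, 105 of 155 in larva 1 and 29 of 49 in D. simulans. miR-9a-5p, which limits sense organ precursors to their proper number, had 7.84%, 7.21%, 6.76% and 2.70%. miR-8-3p ran the other way in its values, with 1.67%, 3.44%, 5.66% and 4.71%, from 3, 9, 3 and 8 reads with tails. For each of these 3 arms the D. simulans and D. yakuba intervals overlapped that of D. melanogaster larva 2.

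The miRNAs were also read by role. Over all 36 arms the median ratio to the mean D. melanogaster share was 0.523 in D. simulans and 0.502 in D. yakuba (0.620 with arms of 0 reads set at 3 reads). The K box and Brd box list, whose members repress proapoptotic and Notch pathway genes, had 9 arms tested. Its median ratios were 0.0931 in D. simulans and 0.164 in D. yakuba, or 0.205 and 0.303 with arms of 0 reads set at 3 reads. In D. simulans 1 of these arms was higher (miR-11-3p) and 4 lower, and in D. yakuba 0 higher and 3 lower. That is 55.6% and 33.3% of the list outside D. melanogaster, near the 50% and 38.9% of all tested arms. Together the list's 22 shared arms held 10.0% and 5.28% of reads in D. melanogaster larvae 1 and 2, 1.86% in D. simulans and 1.32% in D. yakuba. miR-7-5p alone held 6.36% and 1.61% in the D. melanogaster larvae. The 9 arms with the K box seed itself, which are miR-2a, miR-2b, miR-2c, miR-5, miR-6, miR-11, miR-13a, miR-13b and miR-308 on the 3p side, held 2.33%, 3.14%, 1.64% and 0.864% in the same order. D. yakuba lay below both D. melanogaster larvae and the D. simulans larva, and D. simulans also lay below both D. melanogaster larvae. Within that seed family miR-11-3p was higher in D. simulans and miR-13b-3p lower, so its members did not move together. In 1 prepupal RNA the same 9 arms held 1.34% with GACT and 2.65% with ACTG in D. simulans, and 0.902% with CGAT and 1.62% with TGAC in D. yakuba.

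The lists that follow are to be read against the 50% of all tested arms outside D. melanogaster in D. simulans (16.7% higher, 33.3% lower) and the 38.9% in D. yakuba (11.1% higher, 27.8% lower). The sense organ, disc and epithelium list had 7 tested arms with median ratios of 1.25 in D. simulans and 0.797 in D. yakuba. Of these 2 were higher and 1 lower in D. simulans, and 0 higher and 2 lower in D. yakuba (42.9% and 28.6% of the list outside). The list held 37.6%, 41.8%, 51.2% and 29.01% of the reads in D. melanogaster larvae 1 and 2, D. simulans and D. yakuba. For the digestive tract list of 8 arms the median ratios were 0.387 and 0.694, with 1 higher and 4 lower in D. simulans and 2 higher and 3 lower in D. yakuba (62.5% outside in each). These counts are on own hairpins. The lower arms in D. simulans included miR-305-5p and miR-281-5p, with 0 and 1 reads on own hairpins and 39 and 35 on the D. melanogaster hairpins. Over all 36 tested arms, 10 lay lower in D. simulans on the D. melanogaster hairpins, against 12 on own hairpins. The growth and metabolism list of 7 arms had median ratios of 0.650 and 0.227 (0.644 in D. yakuba with 0 reads set at 3), with 1 higher and 2 lower in D. simulans and 2 of each in D. yakuba (42.9% and 57.1% outside). Its lower arms in D. simulans also included miR-305-5p. The steroid-linked list was tested on 4 arms, of miR-34, miR-8 and miR-14, with median ratios of 0.514 and 0.330 (0.673 with 0 reads set at 3). In it 1 arm was higher and 2 were lower in each species, 3 of only 4 arms. Of the 2 nervous system arms, miR-276a-3p and miR-124-3p, 0 lay outside in either species. Of the 2 Hox arms, miR-10-3p was lower in D. simulans. The muscle list rested on miR-1-3p, since miR-133 had 2 reads in D. yakuba and 0 in the other larvae.

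Several groups had few reads at this depth. The let-7 complex (let-7, miR-100 and miR-125), which is part of the steroid-linked list, had 1 and 4 reads in D. melanogaster larvae 1 and 2, 7 in D. simulans and 0 in D. yakuba. No arm of it reached the share needed for comparison, and the counts are too small for a species difference to be read. On each library's own hairpins, the testis-rich miRNAs had 36, 25 and 15 reads in D. melanogaster larvae 1 and 2 and D. simulans. The D. yakuba text lists 0 of the 21 miRNAs of that list, so it gives no own-hairpin count, and on the D. melanogaster hairpins the D. yakuba larva had 8 such reads and the D. simulans larva 0. The early embryo cluster had 2 tested arms of miR-5, and 249, 10, 8 and 8 reads in all, so that D. melanogaster larva 1 stood apart from the other 3 larvae.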

How the data were processed

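The authors aligned reads to miRNA hairpins with Bowtie 0.12.5, per the submitters' processing notes. Aligner settings and genome builds were not given in the sources used here. In the deposited alignment texts, each sequence has a raw read count per library. The deposited summary table holds estimated counts per hairpin arm, with reads divided among matching loci, and 12 of its columns are not of these libraries and were not used. Reads were summed again per arm from the texts: a read on several copies of 1 miRNA counted once, and a read listed for several miRNAs was divided among them. Of 4616 summary cells, 4608 lay within 1 read of these sums (99.8%).

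Each library was counted on its own species' hairpins and again on those of D. melanogaster. Intervals of shares are Clopper-Pearson at 95% (scipy 1.17.1), and those of ratios exact binomial. Reads have no molecular identifiers, so intervals and floors of 3 reads cover counting error only. Rounded counts of the 36 arms with a mean share of 0.1% were scaled by TMM and tested with the edgeR 4.0.16 quasi-likelihood F test (8 male samples, group means, same-RNA libraries summed) with Benjamini-Hochberg adjustment per comparison, and with DESeq2 1.42.0 as an alternative. Fitted differences are log2 with SE, which for edgeR was taken as the size of the difference divided by the square root of F. The scripts were tested on simulated data. Depth, from 3731 reads, limits what rarer arms can show. Nothing in the labels says that replicates came from separate cultures, and the p-values reflect only how far these samples differ.

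The arms, lists and named arms were chosen with earlier results of these data known. Arms were named if they were among the 15 with the highest mean share, called, among the 10 smallest p-values of a comparison, among the 5 highest or lowest ratios outside D. melanogaster, moved by the hairpin set, or among the 3 leading arms of a list. Alternatives were other scalings, filters, hairpin sets, left-out libraries or arms, the label number as a replicate block, and the index as a term. The block and index fits kept same-RNA libraries as separate samples instead of summing them. Ovary-rich miRNAs, mirtrons and the mir-310 cluster had 0 tested arms.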

Additional observations from a re-analysis of the deposited data

Results flagged for a closer look

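Arms without a hairpin in all 3 alignment texts were left out of the comparisons, and some held many reads. In D. melanogaster larva 1, miR-995-3p had 1020 reads on own hairpins, and in larva 2 miR-252-5p had 174. In the D. simulans larva miR-375-3p had 77 reads, and in the D. yakuba larva miR-9c-5p had 11. Counted on the D. melanogaster hairpins, the D. yakuba larva had 39 reads of miR-995-3p, which the D. yakuba text does not list as a hairpin.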

How the results depend on the processing

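The number of arms called in D. simulans against D. melanogaster was 3. It was 0 with RLE scaling, with upper-quartile scaling, with the 4 larval libraries alone, on the D. melanogaster hairpins, without the 3 arms with the most reads, without arms whose reads are shared by several miRNAs and with the index as a term (chosen after seeing the data), 1 with DESeq2 (miR-34-5p), and 0 to 5 with a library left out. It was 3 with no filter and with a mean share of at least 0.5%. Without D. melanogaster larva 2 the 5 were miR-34-5p, miR-2a-5p, miR-2b-5p and miR-5-3p, lower, and miR-315-5p, higher. For D. yakuba against D. melanogaster the 0 calls stayed at 0 in all alternatives run except with a library left out (0 to 3), where the loss of larva 2 gave miR-275-5p, miR-2b-5p and miR-5-3p, lower. For D. yakuba against D. simulans the 1 call went to 0 with RLE scaling, on the D. melanogaster hairpins and without the 3 leading arms, and was 0 to 0 with a library left out. The label number as a replicate block gave 2 calls for D. simulans (miR-281-5p and miR-305-5p), 0 for D. yakuba and 1 between them. That block fit did not sum the same-RNA prepupal libraries, and had 3 residual degrees of freedom against 2 in the main fit. Part of its spread was therefore between repeat libraries of 1 RNA, so its calls are not on the same footing as the main ones. Larva and prepupa deviations of the same number had an r of 0.565 over 36 arms in the 2 D. melanogaster pairs, where number and pool coincide, and the numbers pair nothing in the other species. The index could not be fitted as a term for D. yakuba. The median log2 difference over all arms was −0.76 for D. simulans and −0.27 for D. yakuba with TMM, −0.47 and −0.06 with RLE, and 0.06 and −0.40 with upper-quartile scaling. Arms outside both D. melanogaster larvae numbered 18 in D. simulans and 14 in D. yakuba, and 23 to 28 and 22 to 24 with 1 D. melanogaster larva left out. Arms above the mean D. melanogaster share in D. yakuba numbered 9, and 14 with the 3 leading arms taken out of the total. Hairpins outside in arm usage in D. yakuba numbered 1, and 2 on the D. melanogaster hairpins. Of the named calls' alternatives 16 kept the call, 43 lost it and 0 reversed. Apart from that entry of miR-305, the cause of these changes was not tested. At 4514 and 3702 reads on shared arms, absence below 0.0665% and 0.0810% could not be read in D. simulans and D. yakuba.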
